A study of Mus musculus with 6 samples.

Results

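Enzymes that attach a sugar, a sulfate or glutathione to small molecules were followed along the mouse large intestine. They are the genes whose array symbol begins with Ugt (UDP-glycosyltransferases), Sult (cytosolic sulfotransferases) or Gst (glutathione S-transferases). After this prefix comes a number or a class letter and number. With only probe sets that name 1 gene, and the probe set of highest mean for each gene, 44 of the 18193 genes on the array were members, 11 Ugt, 13 Sult and 20 Gst genes. They came from 56 probe sets, and 5 further probe sets of these families list several genes and were left out. Gstcd, which carries a glutathione transferase domain but no class letter and number, is no member. Gene expression was measured on 6 arrays of total RNA from untreated female C57BL/6J mice, a wild-type inbred strain. The tissue was proximal colon for 3 libraries and distal colon for the other 3, and 3 animals gave both regions. The sources used here state neither the age of the mice nor the layers of the pieces. Values are deposited log2 expression per probe set, and the number of arrays limits their precision. Array medians over all probe sets ran from 7.90 to 8.02.

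Conjugation makes lipophilic compounds more soluble and marks them for export. UDP-glucuronosyltransferases sit in the endoplasmic reticulum and use UDP-glucuronic acid. Sulfotransferases are cytosolic and take sulfate from the activated donor PAPS, and glutathione transferases join glutathione to electrophiles. In the intestine these enzymes act mainly in absorptive epithelial cells, on drugs, dietary phenols, steroids, bile acids and products of bacteria. Ugt8a differs from the other Ugt genes in using UDP-galactose, from which it makes galactosylceramide, a lipid of myelin and of some epithelia.

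The libraries labelled proximal 1 and distal 3 stood apart from the others of their label and went against it, so results are given with and without them. Whether these labels were exchanged was not tested, and every mean and difference given as labelled rests on them. Over all 18193 genes the comparison of the 6 libraries as labelled called 0 genes at an adjusted p of 0.05 (limma, Benjamini-Hochberg, 0% of genes), with 554 genes (3.05%) at an unadjusted p of 0.05. Without this pair, 3494 genes were called, 19.2% of all tested, of which 2092 (11.5%) were higher in proximal and 1402 (7.71%) higher in distal libraries. That choice of 4 libraries was made after their profiles were seen, so its p-values are too small, and they concern only proximal 2 and 3 and distal 1 and 2. This split depends on the scaling: it was 1557 and 1883 after median centring of the arrays, and 1718 and 1737 after quantile normalization. In tissue pieces, fewer cells of a type and less RNA per cell cannot be told apart. The pieces held epithelium: the summed level of 14 colonic epithelial markers, as log2, was 17.79, 18.01 and 18.01 in proximal 1, 2 and 3 and 17.82, 17.86 and 18.02 in distal 1, 2 and 3. In the 4 libraries Krt20 (-0.49), Car1 (-0.54) and Cdx2 (-0.88) were called, all higher in the proximal pair, and the other 11 were not. That is 21.4% called, near the 19.2% of all genes. These sums were high and low in the same libraries as most called members, and their part in the member results was not tested.

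As labelled, none of the 44 members was called between the regions. The members' smallest limma adjusted p was 0.824, and 0 of 44 had an unadjusted p of 0.05 or less. For 3 members (Gstm7, Gstm2 and Ugt2b37) the labelled groups were free of overlap, which held for 7.33% of all genes. The median difference over the members was -0.17, distal minus proximal on the log2 scale, against -0.02 over all genes. In the 4 libraries, 13 of 44 members were called (29.5%, against 19.2% of all genes), and all 13 were higher in the libraries labelled proximal. The calls were spread over the families, with 3 of 11 Ugt, 4 of 13 Sult and 6 of 20 Gst genes. Among the called genes the 3 Ugt differences were between -3.52 and -6.46, while the 4 Sult differences reached -0.94 and the 6 Gst differences -1.32. These sizes are for the probe set of highest mean. Dimmer probe sets gave -1.69 for Sult1d1, -1.47 for Gstm3 and -0.69 for Ugt8a. Over all members of a family the median difference was -0.265 for Ugt, -0.230 for Sult and -0.347 for Gst genes. The median difference was -0.315 over the members and -0.045 over all genes, and 39 of 44 members were lower in the distal pair, as were 56.1% of all genes. Of the 13 called members, 13 had proximal 1 closer to the distal pair (75.6% of all called genes did) and 12 had distal 3 closer to the proximal pair (90.1%). Gstm6 was the exception. A call with at least a 2-fold difference was made for 5 of 44 members (11.4%), against 6.28% of all genes. Among genes above the median mean level, 13 of 24 members were called, against 35.6% of all such genes; Ugt8a, Ugt2b36, Gsta2 and Gstm6 lie below that level, so these are not the same 13. Weighting all 6 arrays called 16 members, against 30.7% of all genes. The weights come from how far a library lies from the others of its label. They were 0.322, 6.719 and 1.572 in proximal 1, 2 and 3 and 2.505, 0.403 and 0.291 in distal 1, 2 and 3. This fit thus gave little weight to proximal 1, distal 2 and distal 3, so its distal side rests mainly on distal 1. It is not independent of the choice of 4 libraries. Dropping 1 of the 4 libraries left 1 degree of freedom, and the spread of its lone partner was taken from the other pair. The members called were then 8 without distal 1, 4 without distal 2, and Ugt8a alone without proximal 2 or without proximal 3. The shares of all genes called in these 4 fits were 8.98%, 2.23%, 0.907% and 0.803%.

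**Figure D1:**
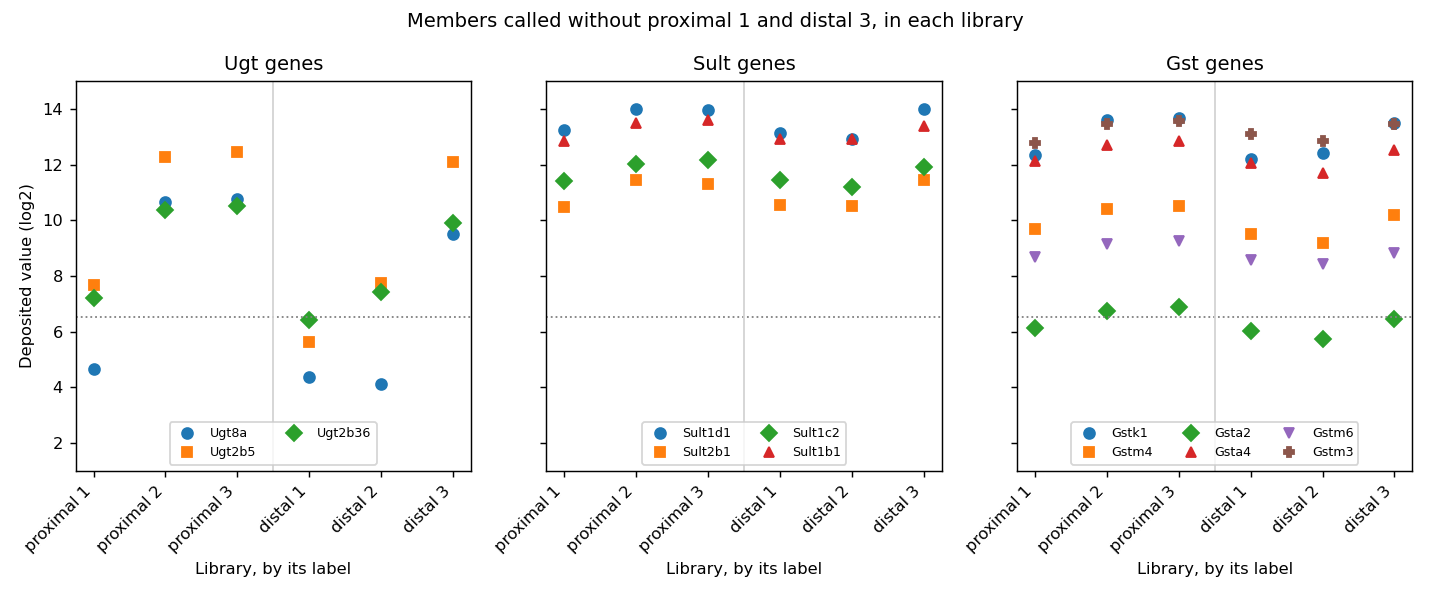
The 13 conjugating enzyme genes called in the 4 libraries, by family, with the deposited log2 value of each of the 6 libraries on the vertical axis and the libraries by label on the horizontal axis; the dotted line is 6.54, the lower quartile of all gene values. In the Ugt panel the libraries labelled proximal 2, proximal 3 and distal 3 sit at 9.52 or above, and proximal 1, distal 1 and distal 2 at 7.76 or below.

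Among the glycosyltransferases, Ugt8a, the galactosylceramide synthase, went from clear signal to the bottom of the array's range. Its values were 4.65, 10.66 and 10.76 in proximal 1, 2 and 3, and 4.37, 4.13 and 9.52 in distal 1, 2 and 3. Proximal 2, proximal 3 and distal 3 were high and the other 3 low, so the labelled groups overlapped. As labelled the means were 8.69 ± 3.50 (SD, n = 3) in proximal and 6.01 ± 3.05 (SD, n = 3) in distal libraries, and differed by -2.68 (SE 2.13, limma adjusted p = 0.824). In the 4 libraries the difference was -6.46 (SE 0.13, limma adjusted p = 9.86e-05), or 88-fold, and it was the only member called whichever of the 4 was left out (-6.58 to -6.34). The distal pair's mean was 4.25. The lower quartile of gene values on these arrays was 6.54, and under it background can hide lower levels. A dimmer probe set of the same gene measured 3.94, 4.62 and 5.09 in proximal 1, 2 and 3 and 4.40, 3.94 and 4.57 in distal 1, 2 and 3. Its difference in the 4 libraries was -0.69, and the mean of both probe sets gave -3.57. Ugt8a is also known from myelin. Of 7 measured markers of myelin and glia 0 were called in the 4 libraries, against 19.2% of all genes. Their summed level, as log2, ran from 12.67 to 12.83 over the 6 libraries. Mag and Mog, proteins of myelin, were below the lower quartile in all 6.

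Ugt2b5, which glucuronidates steroids and xenobiotics, measured 7.66, 12.27 and 12.45 in proximal 1, 2 and 3, and 5.63, 7.76 and 12.10 in distal 1, 2 and 3. The same 3 libraries were high as for Ugt8a, but here the low ones were graded, with distal 1 well below proximal 1 and distal 2. As labelled the difference was -2.30 (SE 1.96, limma adjusted p = 0.824), and in the 4 libraries it was -5.67 (SE 0.66, limma adjusted p = 0.00613). It ranged from -4.60 without distal 1 to -6.73 without distal 2, and was not called without proximal 2 or without proximal 3. Ugt2b36, a relative next to it on the chromosome, measured 7.22, 10.38 and 10.52 in proximal 1, 2 and 3, and 6.42, 7.43 and 9.91 in distal 1, 2 and 3. It had the same high and low libraries, again with distal 1 lowest, and differed by -3.52 (SE 0.33, limma adjusted p = 0.00333) in the 4 libraries, or 11.5-fold. By their standard deviation over all 6 libraries, which uses no label, Ugt8a (3.28), Ugt2b5 (2.98) and Ugt2b36 (1.82) ranked 16, 26 and 99 among the 18193 genes, while the median over the members was 0.19, as over all genes.

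The stretch before the start site of these genes is shown because the strongest members and a close relative of low signal can be compared letter by letter. Each sequence is the 250 bases before the start site, 5′ to 3′ on the minus strand, from RefSeq on GRCm38.p6. Ugt8a lies at chr3:125938653-125938902, Ugt2b5 at chr5:87140341-87140590, Ugt2b38 at chr5:87424204-87424453 and Ugt2b36 at chr5:87092556-87092805. Capitals mark motif matches in Ugt8a (the motif of HNF4 on the other strand, then the dioxin response motif). In Ugt2b38 and Ugt2b36 they mark bases that do not match Ugt2b5 in a global alignment.
Ugt8a: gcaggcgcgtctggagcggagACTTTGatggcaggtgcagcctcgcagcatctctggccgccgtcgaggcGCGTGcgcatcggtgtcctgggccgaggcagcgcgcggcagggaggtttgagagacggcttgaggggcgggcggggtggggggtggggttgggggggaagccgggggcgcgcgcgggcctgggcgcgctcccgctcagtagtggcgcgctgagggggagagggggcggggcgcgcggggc
Ugt2b5: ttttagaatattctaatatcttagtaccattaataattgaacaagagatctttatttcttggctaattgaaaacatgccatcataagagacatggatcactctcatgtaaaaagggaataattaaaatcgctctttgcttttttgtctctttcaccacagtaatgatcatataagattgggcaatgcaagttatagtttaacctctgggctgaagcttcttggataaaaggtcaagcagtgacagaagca
Ugt2b38: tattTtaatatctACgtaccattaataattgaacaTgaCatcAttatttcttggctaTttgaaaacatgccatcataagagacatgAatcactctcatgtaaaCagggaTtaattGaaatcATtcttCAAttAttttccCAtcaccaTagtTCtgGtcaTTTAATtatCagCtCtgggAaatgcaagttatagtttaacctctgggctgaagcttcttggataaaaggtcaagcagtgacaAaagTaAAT
Ugt2b36: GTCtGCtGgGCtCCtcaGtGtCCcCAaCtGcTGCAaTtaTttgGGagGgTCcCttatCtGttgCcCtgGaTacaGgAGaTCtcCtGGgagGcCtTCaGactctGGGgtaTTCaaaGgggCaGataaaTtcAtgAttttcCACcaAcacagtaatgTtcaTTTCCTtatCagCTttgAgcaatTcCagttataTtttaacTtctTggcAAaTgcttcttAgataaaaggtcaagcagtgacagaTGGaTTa

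The Ugt8a stretch was 76.8% G and C, above the 95th percentile of 73.6% over 32851 start site windows of the same length, whereas that of Ugt2b5 was 33.2%, below the 5th percentile of 34.8%. Ugt8a and Ugt2b5 thus lay at opposite ends of base composition. Relatives not called in the 4 libraries had similar shares to Ugt2b5, with 30.4% for Ugt2a3, 31.2% for Ugt2b1, 32.4% for Ugt2b38 and 33.6% for Ugt2b35. Ugt2b37 (36%) and Ugt2b34 (41.6%), also not called, were higher, and the called Ugt2b36 was at 44%. Ugt2b38 matched Ugt2b5 over 81.5% of aligned columns and Ugt2b37 over 72.6%, against 59.3% for Ugt2b36. Ugt2b38 lay between 3.59 and 4.12, below the lower quartile in every library. Ugt2b37 was also below it throughout, from 3.79 to 4.35. At such levels neither gene can show whether it follows Ugt2b5. Ugt2b36 had the high and low libraries of Ugt2b5. A link between likeness of these stretches and the levels was not tested. Windows were searched on both strands for 5 motifs of known regulators, and 39 members and 27025 genes in all had a window. The antioxidant response motif, TGACNNNGC with N any base, was in the windows of 3 members (7.69%, against 11.5% of all genes). The dioxin response motif, GCGTG, was in those of 9 members (23.1%, against 30.9%). GTTAAT, a motif of the liver and gut factor HNF1, was in those of 5 members (12.8%, against 7.49%). The caudal homeobox motif, TTTATG, was in those of 4 members (10.3%, against 12.4%). CAAAGT, a motif of the receptor HNF4, was in those of 8 members (20.5%, against 14.1%). Of the 12 called members with a window, 0, 5, 1, 2 and 4 held these motifs in turn. Of the 27 members with a window and no call, 3, 4, 4, 2 and 4 held them. No link between motifs and calls was tested. Ugt2b5 and Ugt2b36 held no match to these letters. A match is a description of letters, not a bound site.

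The other glycosyltransferases were nearly flat. Ugt2b34 measured 13.80, 14.18 and 14.16 in proximal 1, 2 and 3 and 13.90, 13.91 and 14.04 in distal 1, 2 and 3, a difference of -0.27 in the 4 libraries (SE 0.10, limma adjusted p = 0.136). Ugt2b35 lay between 10.85 and 11.32, with a difference of -0.37 (limma adjusted p = 0.0793). It was called in the fit of genes above the median mean level and, in all 6 libraries, under array weights. Ugt2b1 leaned the opposite way. It measured 6.10, 5.38 and 5.56 in proximal 1, 2 and 3 and 5.88, 6.12 and 6.02 in distal 1, 2 and 3, all below the lower quartile. Its difference was 0.53 (SE 0.14, limma adjusted p = 0.0526), and after median centring it passed with 0.62 (limma adjusted p = 0.0283). It was also called in the fit of averaged probe sets in the 4 libraries and, in all 6 libraries, under array weights. Ugt3a1, an N-acetylglucosaminyl transferase, lay between 7.24 and 7.47, and Ugt3a2 and Ugt2a3 were below the lower quartile in all libraries.

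Members of the Ugt2 and Sult1 groups are neighbours on chromosome 5, and not all of them gave the same result. Between Ugt2b34 and Sult1e1 lie 13 protein-coding genes in the RefSeq order, 11 of them members. In that order Ugt2b34, Ugt2b1 and Ugt2b35 did not pass in the 4 libraries, Ugt2b36 and Ugt2b5 passed, and Ugt2b37, Ugt2a3 and Ugt2b38 did not. Beyond them, Sult1b1 and Sult1d1 passed with smaller differences, and Sult1e1, the oestrogen sulfotransferase, lay between 3.64 and 3.99 in all libraries. Of these 11 members 4 passed, all higher in the proximal pair (19.2% of all genes were called, and 11.5% were higher in that pair), and 5 were below the lower quartile in every library.

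**Figure D2:**
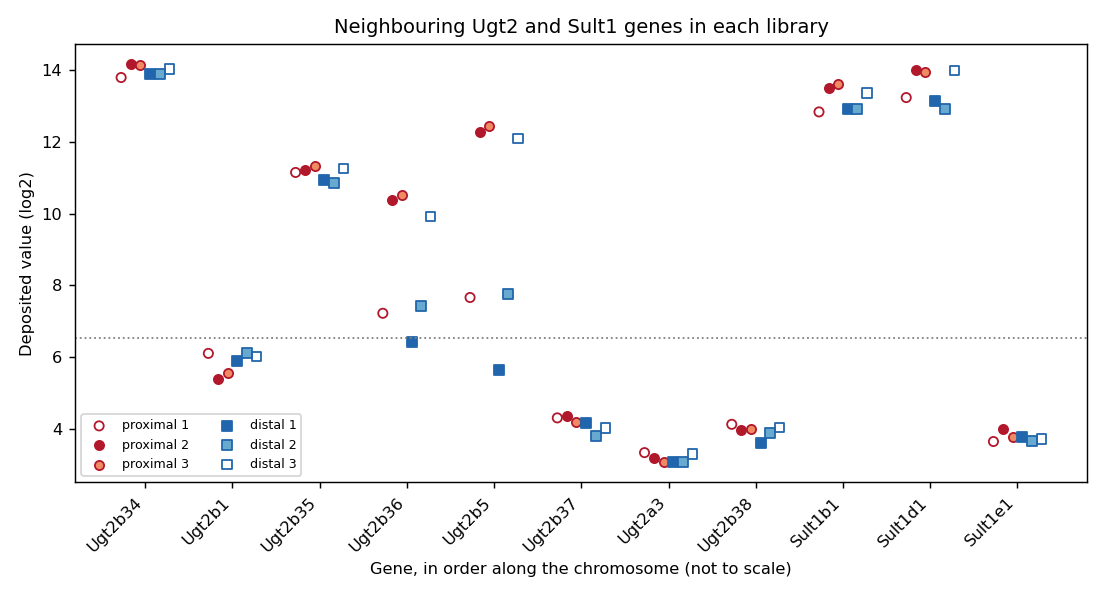
Deposited log2 values (vertical axis) of 11 neighbouring Ugt2 and Sult1 genes in their order along chromosome 5 (horizontal axis, not to scale), with 1 symbol per library and open symbols for proximal 1 and distal 3; the dotted line is 6.54, the lower quartile of all gene values, and levels of different genes cannot be compared. Ugt2b36 and Ugt2b5 spread widely between libraries, Ugt2b34 and Ugt2b35 hardly, and Ugt2b37, Ugt2a3, Ugt2b38 and Sult1e1 lie between 3.06 and 4.35.

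Of the 7 sulfotransferase genes not below the lower quartile in all libraries, 4 were higher in proximal 2 and 3 and the other 3 did not pass. Sult1d1, which sulfates catechols and other small phenols, measured 13.24, 14.00 and 13.95 in proximal 1, 2 and 3 and 13.15, 12.92 and 13.99 in distal 1, 2 and 3. Distal 3 was as high as proximal 2, and proximal 1 as low as the distal pair. The difference was -0.38 (SE 0.33, limma adjusted p = 0.824) as labelled and -0.94 (SE 0.12, limma adjusted p = 0.00893) in the 4 libraries. A dimmer probe set of Sult1d1 gave -1.69, with 12.92 and 12.86 in proximal 2 and 3 against 11.31 and 11.10 in distal 1 and 2, so the size depends on the probe set. Sult2b1, which sulfates cholesterol and other hydroxysteroids, measured 10.49, 11.45 and 11.30 in proximal 1, 2 and 3 and 10.55, 10.50 and 11.44 in distal 1, 2 and 3. Its difference in the 4 libraries was -0.85 (SE 0.11, limma adjusted p = 0.00893).

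Sult1c2 measured 11.42, 12.03 and 12.18 in proximal 1, 2 and 3 and 11.46, 11.18 and 11.90 in distal 1, 2 and 3. Sult1b1, an enzyme of thyroid hormone and phenol sulfation, measured 12.84, 13.50 and 13.61 in proximal 1, 2 and 3 and 12.93, 12.91 and 13.37 in distal 1, 2 and 3. In both genes proximal 1 lay near the distal pair and distal 3 above it. Their differences in the 4 libraries were -0.79 (SE 0.14, limma adjusted p = 0.0204) and -0.63 (SE 0.11, limma adjusted p = 0.0174). Sult1a1, the phenol sulfotransferase, did not pass, with 13.50, 14.06 and 14.09 in proximal 1, 2 and 3 and 13.82, 13.65 and 13.91 in distal 1, 2 and 3 (-0.34, SE 0.11, limma adjusted p = 0.100). Sult4a1, a brain sulfotransferase, lay between 7.92 and 8.27 and Sult5a1 between 6.97 and 7.56, and neither passed. The other 6, Sult1c1, Sult1e1, Sult2a2, Sult2a8, Sult3a1 and Sult6b1, were below the lower quartile in all 6 libraries. Of the 4 calls, Sult1d1 was also called without distal 1, and 0 of the 4 without distal 2, proximal 2 or proximal 3.

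**Figure D3:**
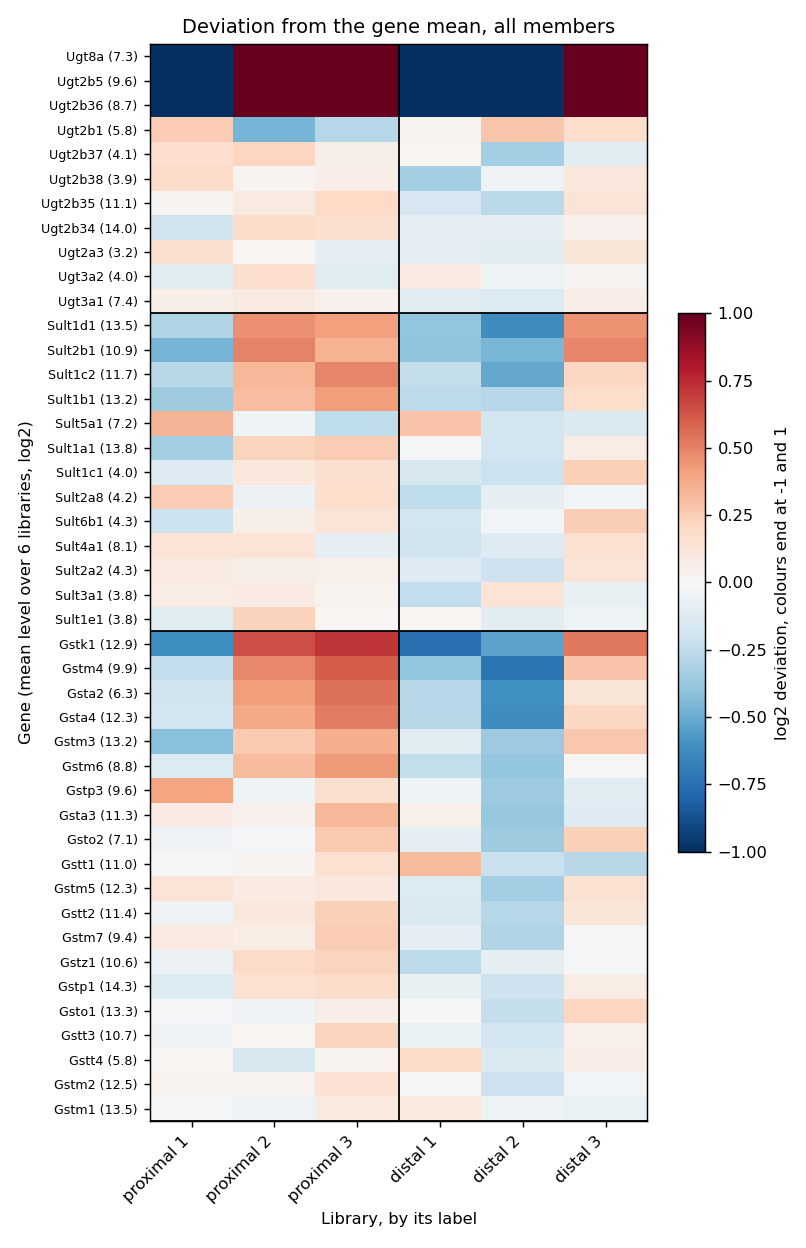
Deviation of each library from the gene's own mean (colour, log2, ending at -1 and 1) for the 44 members (rows, in 3 families divided by lines and ordered by standard deviation, with the mean level in brackets) in the 6 libraries by label (columns). The upper rows of each family are red in proximal 2, proximal 3 and distal 3 and blue in proximal 1, distal 1 and distal 2, and the lower rows show little colour; the 3 upper Ugt genes run past the colour range.

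Glutathione transferases were seldom near the bottom of the array's range, with 1 of 20 genes (Gstt4) below the lower quartile in all libraries, against 5 of 11 Ugt and 6 of 13 Sult genes. Gstk1, the kappa class enzyme of mitochondria and peroxisomes, had the largest difference by the probe sets of highest mean. It measured 12.34, 13.60 and 13.67 in proximal 1, 2 and 3 and 12.21, 12.42 and 13.48 in distal 1, 2 and 3. Proximal 1, distal 1 and distal 2 were low and the other 3 high, across the labels, and the difference was -0.50 (SE 0.47, limma adjusted p = 0.824) as labelled. In the 4 libraries it was -1.32 (SE 0.12, limma adjusted p = 0.00331), or 2.5-fold, and it was also called without distal 1 and without distal 2.

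In the mu class, Gstm4 measured 9.67, 10.40 and 10.52 in proximal 1, 2 and 3 and 9.52, 9.19 and 10.20 in distal 1, 2 and 3, a difference of -1.10 in the 4 libraries (SE 0.15, limma adjusted p = 0.00913). Gstm6 measured 8.68, 9.13 and 9.24 in proximal 1, 2 and 3 and 8.58, 8.43 and 8.83 in distal 1, 2 and 3, with a difference of -0.68 (SE 0.12, limma adjusted p = 0.0180). Distal 3 lay between the pairs for Gstm6, a little nearer the distal one. Gstm3 measured 12.77, 13.45 and 13.55 in proximal 1, 2 and 3 and 13.08, 12.83 and 13.46 in distal 1, 2 and 3. Its difference of -0.54 passed narrowly (SE 0.13, limma adjusted p = 0.0435) and did not pass after median centring (limma adjusted p = 0.0776). That probe set can match several transcripts, and a Gstm3 probe set without this mark gave -1.47, with 11.58 and 11.69 in proximal 2 and 3 against 10.18 and 10.15 in distal 1 and 2. Gstm1 lay between 13.41 and 13.57 in all 6 libraries, with a difference of 0.00 (SE 0.12), and Gstm2, Gstm5 and Gstm7 did not pass. Mu class genes are near copies of each other and lie side by side on the chromosome, so their signals can include relatives.

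In the alpha class, Gsta4, which clears the lipid peroxidation product hydroxynonenal, measured 12.14, 12.71 and 12.85 in proximal 1, 2 and 3 and 12.06, 11.71 and 12.54 in distal 1, 2 and 3. Gsta2 measured 6.12, 6.74 and 6.87 in proximal 1, 2 and 3 and 6.04, 5.72 and 6.44 in distal 1, 2 and 3, around the lower quartile. In the 4 libraries Gsta4 differed by -0.89 (SE 0.15, limma adjusted p = 0.0181) and Gsta2 by -0.93 (SE 0.15, limma adjusted p = 0.0148). Both were also called without distal 1, but not without distal 2. Gsta3 did not pass (-0.35, SE 0.19, limma adjusted p = 0.257). Gstp1, the pi class enzyme, measured 14.15, 14.44 and 14.47 in proximal 1, 2 and 3 and 14.21, 14.08 and 14.36 in distal 1, 2 and 3, and did not pass (-0.31, SE 0.11, limma adjusted p = 0.112). Of the omega, theta and zeta classes, none of 7 genes passed. Their differences ran from -0.39 for Gstt2 and -0.38 for Gstz1, the maleylacetoacetate isomerase of tyrosine breakdown, to 0.08 for Gstt4. Gsto1 lay between 13.05 and 13.51, and Gstp3, of the pi class, was highest in proximal 1 and did not pass (-0.26).

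**Figure D4:**
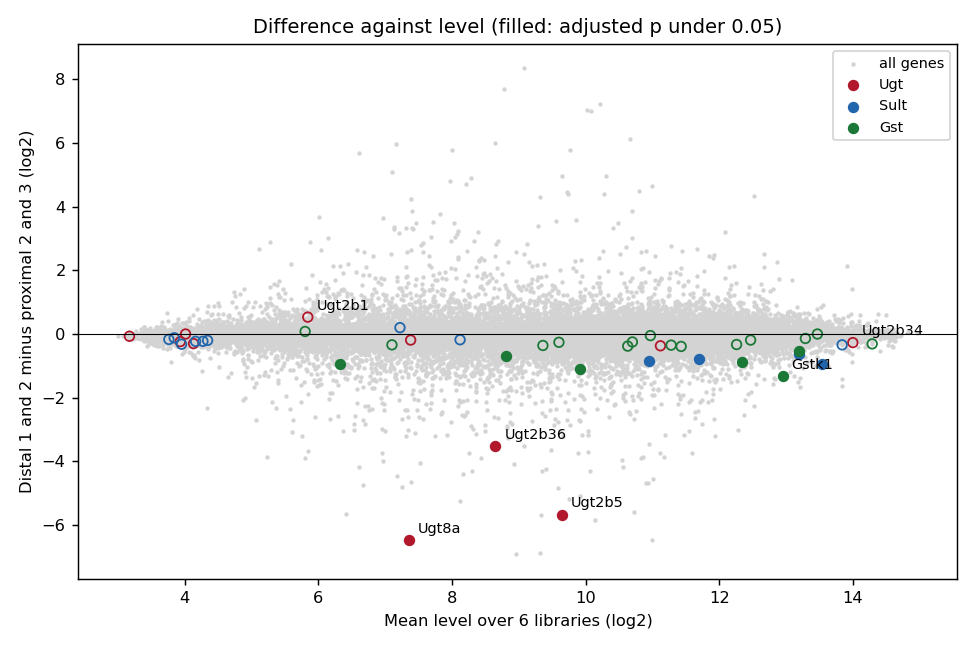
Difference in the 4 libraries, distal 1 and 2 minus proximal 2 and 3 (vertical axis, log2), against the mean level over 6 libraries (horizontal axis, log2) for 18193 genes (grey) and the 44 members by family (colour, filled where the limma adjusted p is under 0.05). Ugt8a, Ugt2b5 and Ugt2b36 lie at -6.46, -5.67 and -3.52, and the other 10 filled members between -0.54 and -1.32.

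Of 8 genes that make, carry or remove UDP-glucuronate, 5 were higher in the proximal pair and 0 in the distal pair, 62.5% called against 19.2% of all genes. All 8 lie above the median mean level, and in the fit of such genes 5 were called, against 35.6% of all genes in it. Slc35d1, which carries UDP-glucuronic acid into the endoplasmic reticulum, measured 11.39, 13.44 and 13.43 in proximal 1, 2 and 3 and 11.47, 11.74 and 13.37 in distal 1, 2 and 3. Its difference in the 4 libraries was -1.83 (SE 0.13, limma adjusted p = 0.00171). Ugp2 (-0.81) and Ugdh (-0.59), which make UDP-glucose and UDP-glucuronate in turn, the nucleotide sugar transporter Slc35d2 (-1.06) and Uxs1, which turns UDP-glucuronate into UDP-xylose (-0.67), also passed. The list's median difference was -0.63, against -0.045 over all genes. Its count was 3 without distal 1, 1 without distal 2 and 0 without proximal 2 or proximal 3.

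Of 14 genes of sulfate supply and removal, 3 were higher in the proximal pair, 0 in the distal pair and 11 did not pass, so 21.4% were called, near the 19.2% of all genes. Slc26a1, a sulfate anion exchanger, measured 4.68, 9.54 and 9.40 in proximal 1, 2 and 3 and 4.90, 5.10 and 9.41 in distal 1, 2 and 3. It thus had the low and high libraries of Ugt8a, with the low 3 under the lower quartile of all genes, and differed by -4.47 in the 4 libraries (SE 0.13, limma adjusted p = 0.000148). Slc13a1, a sodium-coupled sulfate transporter, measured 8.34, 11.69 and 11.66 in proximal 1, 2 and 3 and 7.52, 9.49 and 10.96 in distal 1, 2 and 3 (-3.17, SE 0.61, limma adjusted p = 0.0248). Papss2, which makes the sulfate donor PAPS, differed by -0.89 (SE 0.11, limma adjusted p = 0.00760). The count was 4 without distal 1, 2 without distal 2 and 1 without proximal 2 or proximal 3.

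Of 23 genes of glutathione supply and turnover, 11 were higher in the proximal pair, 1 in the distal pair and 11 did not pass (52.2% called, against 19.2% of all genes). The rate-limiting ligase of glutathione synthesis was among them, with its catalytic subunit Gclc (-1.20) and its modifier subunit Gclm (-0.91), and so were glutathione synthetase Gss (-0.64) and the cysteine-forming enzymes Cth (-1.42) and Cbs (-0.85). Gclc measured 10.53, 11.77 and 11.73 in proximal 1, 2 and 3 and 10.67, 10.43 and 11.54 in distal 1, 2 and 3, low and high in the same libraries as Gstk1. Enzymes that break glutathione down were higher in the same pair, namely Chac1 (-1.13), Chac2 (-0.85) and Ggt5 (-0.91). So was the peptidase Anpep (-2.72), which is also listed among the markers of small intestinal epithelium. Gpx4 (-0.55) and Glrx (-0.76), which use glutathione, completed the 11. Slc1a1, a transporter of glutamate and cysteine, went the other way (1.97), with 12.70, 10.69 and 10.46 in proximal 1, 2 and 3 and 12.62, 12.47 and 11.70 in distal 1, 2 and 3. The count was 7 without distal 1, and 1 without distal 2, proximal 2 or proximal 3.

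Among 20 other conjugating and related enzymes, 6 were higher in the proximal and 2 in the distal pair (40% called, against 19.2% of all genes). The quinone reductase Nqo1 (-1.30), the acetyltransferase Nat2 (-1.17), the thiopurine methyltransferase Tpmt (-0.79), the leukotriene synthase Ltc4s (-0.67), the epoxide hydrolase Ephx2 (-0.61) and the histamine methyltransferase Hnmt (-0.47) were the former. Acsm3, an acyl-CoA synthetase (1.46), and Hpgds, a prostaglandin D synthase of the glutathione transferase fold (0.98), were the latter. Of 10 efflux pumps for conjugates, Abcg2 (-1.02) and Abcc3 (-0.64) were higher in the proximal pair and Abcc6 (0.70) in the distal pair, while Abcb1a (-0.25, limma adjusted p = 0.155) and the other 6 did not pass (30% called). Of 14 genes of the lipid pathway around Ugt8a, Fa2h, which makes the hydroxylated fatty acids of galactosylceramide (-0.93), Galc, which degrades that lipid (-1.48), Degs2 (-0.62) and the ceramide synthase Cers3 (-1.03, below the lower quartile in all 6 libraries) were higher in the proximal pair. The ceramide synthases Cers4 (0.75) and Cers5 (0.61) were higher in the distal pair, so 42.9% of this list were called. Of 20 regulators, Ppara, the fatty acid receptor (-1.47), Cdx2, an intestinal homeobox factor (-0.88), and Rxra, the shared partner of many nuclear receptors (-0.71), were higher in the proximal pair and Foxa2 (0.82) in the distal pair. The other 16 regulators did not pass, so 20% were called, near the 19.2% of all genes. Among genes above the median mean level, 39 of 83 genes of the 7 lists were called (47%), against 35.6% of all such genes. List by list, in the order given here, these shares were 62.5%, 41.7%, 58.8%, 45.5%, 33.3%, 50% and 35.3%. At all levels, 41 of 109 genes of the 7 lists were called (37.6%, against 19.2% of all genes). Without distal 1, distal 2, proximal 2 and proximal 3 the counts were 28, 6, 2 and 2, or 25.7%, 5.5%, 1.83% and 1.83%, against 8.98%, 2.23%, 0.907% and 0.803% of all genes.

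**Figure D5:**
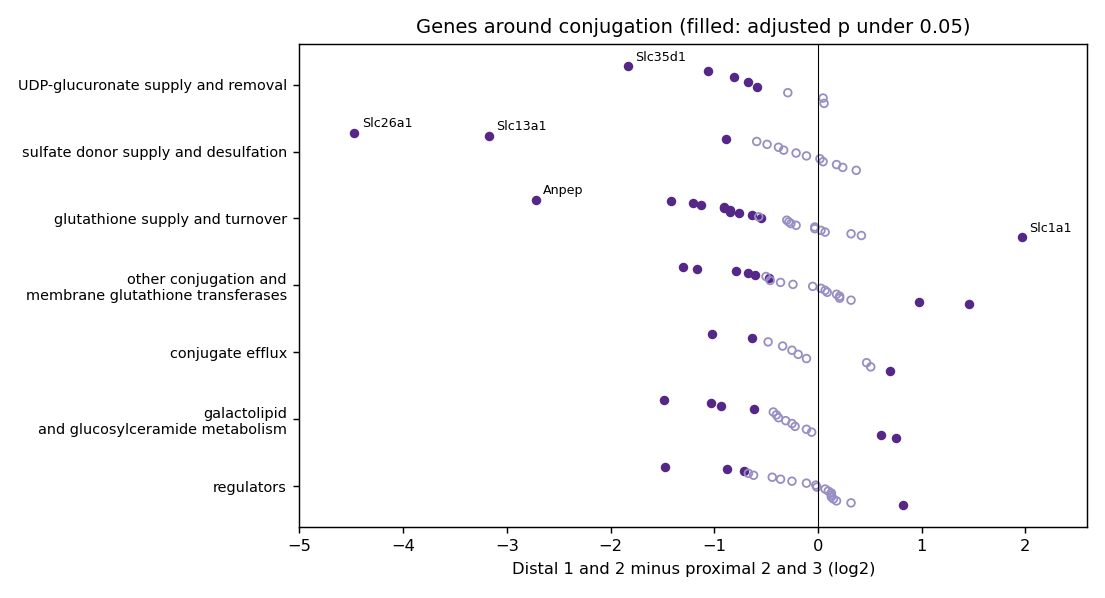
Difference in the 4 libraries, distal 1 and 2 minus proximal 2 and 3 (horizontal axis, log2), for each gene of 7 lists around conjugation (vertical axis, genes spread within a list), filled where the limma adjusted p is under 0.05. Slc26a1 (-4.47), Slc13a1 (-3.17) and Anpep (-2.72) lie farthest to the proximal side and Slc1a1 (1.97) to the distal side.

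Markers of other tissues moved with these genes in part. Of 12 measured markers of small intestinal epithelium, 10 were higher in the proximal pair and 0 in the distal pair, and the log2 of their summed level was 14.02, 15.68 and 15.61 in proximal 1, 2 and 3 and 13.42, 14.09 and 15.22 in distal 1, 2 and 3. Slc10a2 (-3.86), Fabp6 (-3.06), Apoa1 (-5.67), Alpi (-4.29), Mttp (-2.44) and Anpep (-2.72) had the largest differences, and Lct and Gata4 were below the lower quartile in all 6 libraries. Of 10 hepatocyte markers 3 were higher in the proximal and 1 in the distal pair, with sums from 13.84 to 14.23 in proximal and from 13.30 to 13.90 in distal libraries. Cps1 (-1.88), Apoc3 (-1.57) and Serpina1b (-1.48) were the former and Alb (0.90) the latter, and Fga was below the lower quartile in all 6 libraries. Cps1, a urea cycle enzyme that gut epithelium also makes, was high and low in the same libraries as Ugt2b5. Markers of pancreatic acinar cells were high in proximal 1 and distal 1, with sums of 15.91 and 15.85 against 12.40 to 13.83 in the other 4 libraries, and 2 of 9 were called, both higher in the distal pair. Those were Cela1 (1.74), which was high in proximal 1, distal 1 and distal 2, the libraries where the called members were low, and Clps (2.67). The other 7 were high in proximal 1 and distal 1 and not in distal 2. Smooth muscle sums ran from 16.38 to 16.70 in proximal and 16.71 to 16.79 in distal libraries, with 1 of 8 markers called, higher in the distal pair. Of 7 immune markers 2 were higher in the proximal and 1 in the distal pair, of 5 adipocyte markers 1 in the proximal pair, and of 7 goblet cell markers 1 in the distal pair. Cd3e (-1.33), Adgre1 (-0.90) and Cidec (-2.67) were the former, and Cd79a (1.47) and Clca1 (0.62) the latter. Of all genes 19.2% were called. The share was 83.3% for small intestinal, 40% for hepatocyte, 22.2% for acinar and 12.5% for smooth muscle markers. It was 42.9% for immune, 20% for adipocyte and 14.3% for goblet cell markers. The part of these lists in the member results was not tested.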

How the data were processed

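Total RNA of 6 colon libraries was amplified with NuGEN Ovation kits, labelled with biotin and hybridised to 1 array each, per the labels' protocols. The deposited log2 values were made with RMA in Partek 6.5, per the submitters' processing notes. They span 2.91 to 15.16, as RMA's log2 scale does. Scanner files and detection calls were not used here. Normalization in RMA can hide a shift common to most genes. The array medians still differed in the deposited values.

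Of 45101 probe sets, 34945 name 1 gene, 932 name several and 9160 name none, and 64 controls were left out. Symbols were updated through the gene identifier with RefSeq names of GRCm38.p6, which changed the symbol of 0 members, and the probe set of highest mean stood for a gene. Libraries were grouped by label. Distal minus proximal was fitted over all 18193 genes in R 4.3.3 by limma 3.58.1 (eBayes after lmFit, two-sided, Benjamini-Hochberg, threshold 0.05), with no block. The labels do not tie replicate numbers to animals, so p-values measure only the spread between these libraries.

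Members, lists, motifs and the rule for named genes were chosen with earlier results of these data known. The rule took, in each family, the 10 members of largest standard deviation and the 4 of highest mean, all calls, up to 12 per direction in the 4-library fit, and 3 genes of largest standard deviation in each pathway list. Beyond it, all called genes of these lists, Ugt3a1, Ltc4s and members without a call were named after their values were seen. Several probe sets exist for 10 members, with 1 direction in the 4 libraries for 8 of the 10. Gstm1, Gstm3, Sult6b1 and Ugt3a1 rest on probe sets that can match several transcripts. Start site windows were aligned with Biopython 1.88. Alternatives were median centring, quantile normalization, the replicate block, array weights, averaged probe sets, a filter on low means (9099 genes stayed), a robust trended prior, each library left out, and a threshold of 0.01. The 4-library fit and its own alternatives were added after seeing the data. The calculation was tested on simulated data with independent noise. The simulation did not include the choice of libraries after their profiles were seen.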

Additional observations from a re-analysis of the deposited data

How the results depend on the processing

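As labelled, the calls over all genes and over the members were 0 under every alternative with 6 libraries except array weights, which called 5579 genes and 16 members. In the 4 libraries the robust trended prior called 4577 genes and 19 members, and averaged probe sets 3879 and 14. Under that prior Gstm5, Gstp1, Gstt2, Sult1a1, Ugt2b34 and Ugt2b35 were called too, and under the filter on low means Gstt2, Gstz1, Sult1a1 and Ugt2b35. Quantile normalization called 3455 genes and 13 members, and median centring 3440 and 13. Without such changes the 4 libraries called 3494 genes and 13 members, and at an adjusted p of 0.01 limma called 1112 and 7. With each of the 4 left out, 146 to 1633 genes and 1 to 8 members were called. With the replicate block, 0 genes and 0 members were called (smallest adjusted p over all genes = 0.404). The deviations of same-numbered libraries correlated at 0.677, -0.448 and 0.678, which follows the split of profiles and cannot show whether equal numbers are 1 animal. The numbers were not taken as pairs, and the 4 libraries share only number 2, too few for a block.

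Differences near 0 changed sign as labelled. Under array weights Gstm1 was at 0.09, Gsto1 at 0.00, Gstt1 at 0.15, Sult5a1 at 0.26, Sult6b1 at -0.18 and Ugt3a2 at -0.04. Under median centring Gstm1 and Gsto1 were at 0.05, Sult5a1 at 0.04 and Ugt2a3 at 0.00, and under quantile normalization Sult5a1 was at 0.02. In the 4 libraries Sult5a1 was at 0.20 and Sult6b1 at -0.20. With each library left out, Gstm1 ran from -0.06 to 0.03, Gstm3 from -0.38 to 0.01, Gsto1 from -0.13 to 0.10, Gsto2 from -0.29 to 0.01 and Sult1a1 from -0.28 to 0.01. Likewise Sult5a1 ran from -0.18 to 0.14, Sult6b1 from -0.09 to 0.12, Ugt2a3 from -0.14 to 0.01 and Ugt3a2 from -0.01 to 0.14. The cause was not tested. Signals under the lower quartile cannot show how low a gene is.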

Other observations

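The Ugt1a genes share most of their coding exons, so no probe set names 1 of them, and 3 probe sets list 8 Ugt1a genes together. The brightest of the 3 measured 13.54, 14.18 and 14.12 in proximal 1, 2 and 3, and 13.58, 13.69 and 14.10 in distal 1, 2 and 3. Another measured 12.81, 13.73 and 13.79 in proximal 1, 2 and 3 and 12.87, 12.87 and 13.66 in distal 1, 2 and 3. In both, proximal 2, proximal 3 and distal 3 were the 3 highest, as for Ugt2b5, and these probe sets entered no test. They show the locus as a whole and not which of its enzymes is expressed.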
